A study of Homo sapiens with 12 samples.

Results

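The genes described here handle iron inside the cell or set how readily a cell dies by ferroptosis: TFRC, SLC11A2, FTH1, FTL, NCOA4, IREB2, ACO1, GPX4, AIFM2 and ACSL4. They were chosen as a list by gene name, and all 10 were found among the 29657 genes listed for SCC15 cells and the 31055 listed for SCC25 cells. All 10 also passed the filter of a mean normalized count of at least 10, as did 15902 genes in SCC15 and 16539 in SCC25. SCC15 and SCC25 are established lines of oral squamous cell carcinoma, a head and neck squamous cell carcinoma (HNSCC), labelled wild type. RNA was sequenced after 24 h with squamocin, an annonaceous acetogenin that the labels call ACGs, or with the solvent DMSO as control. Each cell line had 3 squamocin and 3 DMSO libraries, which makes 12 in all, and the comparison asks how squamocin changed the RNA of each line. Each comparison rests on 1 cell line, and the labels do not say whether the libraries came from separate cultures, so the p-values measure the spread between these libraries only.

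Cells take up transferrin-bound iron through the transferrin receptor (TFRC), pass it out of endosomes through SLC11A2 (DMT1), and store what they do not use inside ferritin, a shell of heavy (FTH1) and light (FTL) chains. NCOA4 carries ferritin to the lysosome, where its iron is released again (ferritinophagy). The iron regulatory proteins IRP1 (the product of ACO1, which is a cytosolic aconitase when it holds an iron-sulphur cluster) and IRP2 (IREB2) bind hairpins called iron-responsive elements when iron is short, which blocks translation of ferritin mRNA and stabilises TFRC mRNA. Ferroptosis is a death by iron-dependent peroxidation of membrane lipids: ACSL4 activates the polyunsaturated fatty acids that become peroxidised, GPX4 reduces lipid peroxides with glutathione, and AIFM2 (FSP1) regenerates the radical-trapping form of coenzyme Q.

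The hairpins are shown because they are the sequence feature that the regulatory proteins bind in ferritin and TFRC mRNA. They were searched in the MANE Select transcript of each gene (GENCODE v44, GRCh38), on the transcript strand alone, as a C, 5 bases of any kind, the loop CAGTGN and 5 more bases, in which the bases before the loop can pair with those after it, G-U pairs included. Each is printed 5′ to 3′ with 5 bases added on either side, and the capitals mark the unpaired C and the loop. The FTH1 element lies in the 5′ UTR at chr11:61967575-61967601 (minus strand) and the FTL element in the 5′ UTR at chr19:48965336-48965362 (plus strand). The search matched 4 TFRC elements, and an element with another loop would be missed. These 4 lie in the 3′ UTR on the minus strand, at chr3:196050980-196051006, chr3:196050576-196050602, chr3:196050511-196050537 and chr3:196050464-196050490, and are listed in that order.
FTH1: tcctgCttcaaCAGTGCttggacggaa
FTL: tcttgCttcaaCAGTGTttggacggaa
TFRC site 1: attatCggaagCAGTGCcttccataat
TFRC site 2: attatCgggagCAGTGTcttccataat
TFRC site 3: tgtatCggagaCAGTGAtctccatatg
TFRC site 4: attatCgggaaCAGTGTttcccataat
The FTH1 and FTL elements as printed shared 25 of 27 letters. The other 7 transcripts held 0 matches, that of SLC11A2 included, although SLC11A2 is also counted below among mRNAs known for such an element. This says only that these letters with this pairing are not in that 1 transcript per gene. Of 19061 genes with a MANE Select transcript, 256 (1.34%) held at least 1 such paired match, and 66.67% held the letters without the pairing. A match is a description of the sequence, and no binding was measured.

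The deposited tables place the genes as follows on GRCh38. On the minus strand lie TFRC at chr3:196027183-196082189, SLC11A2 at chr12:50979401-51028566 and FTH1 at chr11:61959718-61967660, as well as NCOA4 at chr10:46005088-46030714, AIFM2 at chr10:70098223-70132934 and ACSL4 at chrX:109624244-109733403. On the plus strand lie FTL at chr19:48965301-48966878 and IREB2 at chr15:78437431-78501456, and ACO1 at chr9:32384603-32454769 and GPX4 at chr19:1103926-1106791.

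The libraries held 16665563 to 22748845 reads assigned to genes. After the authors' scaling, the SCC15 squamocin libraries summed to 20467856 to 24626253 normalized counts against 15466464 to 15535484 with DMSO (ratio of medians 1.34), and the SCC25 libraries to 20917114 to 21265099 against 18245022 to 18333723 (1.16). When all libraries of a line were instead brought to equal totals, the median log2 change of all tested genes moved from 0.01 to -0.48 in SCC15 and from -0.01 to -0.22 in SCC25. With the deposited scaling, a log2 change is therefore a change relative to the median gene. Squamocin library 3 of SCC15 stood apart: over all genes its reads differed from those of the other 2 squamocin libraries by a chi-square of 71.6 and 63.6 per degree of freedom, against 1.72 to 11.0 for every other pair within a group, and the SCC15 changes of the 10 genes are given with and without it. Of 8 squamous epithelial markers, 6 exceeded 100 normalized counts in every library in SCC15 and 7 in SCC25, and in SCC15 the defining markers KRT5 (at most 13.1) and TP63 (at most 22.7) were nearly absent. Red cell precursor markers summed to at most 39.4 normalized counts in any library. In SCC25, leukocyte markers summed to 335 to 427 normalized counts with DMSO, mostly CD14, and to 19.1 to 32.2 with squamocin, and endothelial markers to 235 to 296 and to 19.8 to 37.7. In SCC15 the leukocyte sums were 499 to 541 and 320 to 506, and the endothelial sums 164 to 181 and 66.1 to 77.5. Fibroblast markers summed to 708 to 784 with DMSO and 482 to 486 with squamocin in SCC15, and to 766 to 810 and 1073 to 1228 in SCC25. Their part in the results was not tested.

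In both cell lines squamocin raised the ferritin chains FTH1 and FTL, the lipid peroxidase GPX4, the lipid ligase ACSL4 and the iron transporter SLC11A2, and lowered IREB2. TFRC, NCOA4 and ACO1 fell and AIFM2 rose in SCC25. In SCC15 these 4 genes did not pass the test. In SCC15, 6 of the 10 genes changed at an adjusted p under 0.05, 5 higher and 1 lower, where 61.0% of all tested genes changed (30.9% higher and 30.0% lower). In SCC25 all 10 changed, 6 higher and 4 lower, where 76.8% of all tested genes did (38.3% higher and 38.5% lower). Changes were frequent among all genes in both lines, so the counts by themselves do not set the list apart. The genes FTH1, FTL, GPX4, ACSL4 and SLC11A2, 5 in all, were higher in both lines, against 22.1% of the 14454 genes tested in both, and 1 (IREB2) was lower in both, against 18.6%. With equal library totals only FTH1, FTL and GPX4 of the 10 passed as higher in both lines, and SCC15 had 3 genes higher and 4 lower. Of all tested genes 2357 of 15902 were then higher and 8032 lower in SCC15, and 5032 and 7839 of 16539 in SCC25. FTH1, FTL and GPX4 have the shortest MANE Select transcripts of the 10 (1203, 871 and 851 bases, against 3134 to 7443 for the rest). A part of transcript length in the changes was not tested. The DMSO and squamocin libraries did not overlap for 8 genes in SCC15 (70.6% of all tested genes) and for all 10 in SCC25 (79.0%). Called changes beyond a log2 change of 1 were seen for FTH1, FTL and GPX4 in SCC15, 3 genes higher (12.6% of all tested genes), and for IREB2, 1 lower (14.6%). In SCC25 they were seen for FTL and ACSL4, 2 higher (13.9%), and for TFRC, 1 lower (17.0%).

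**Figure D1:**
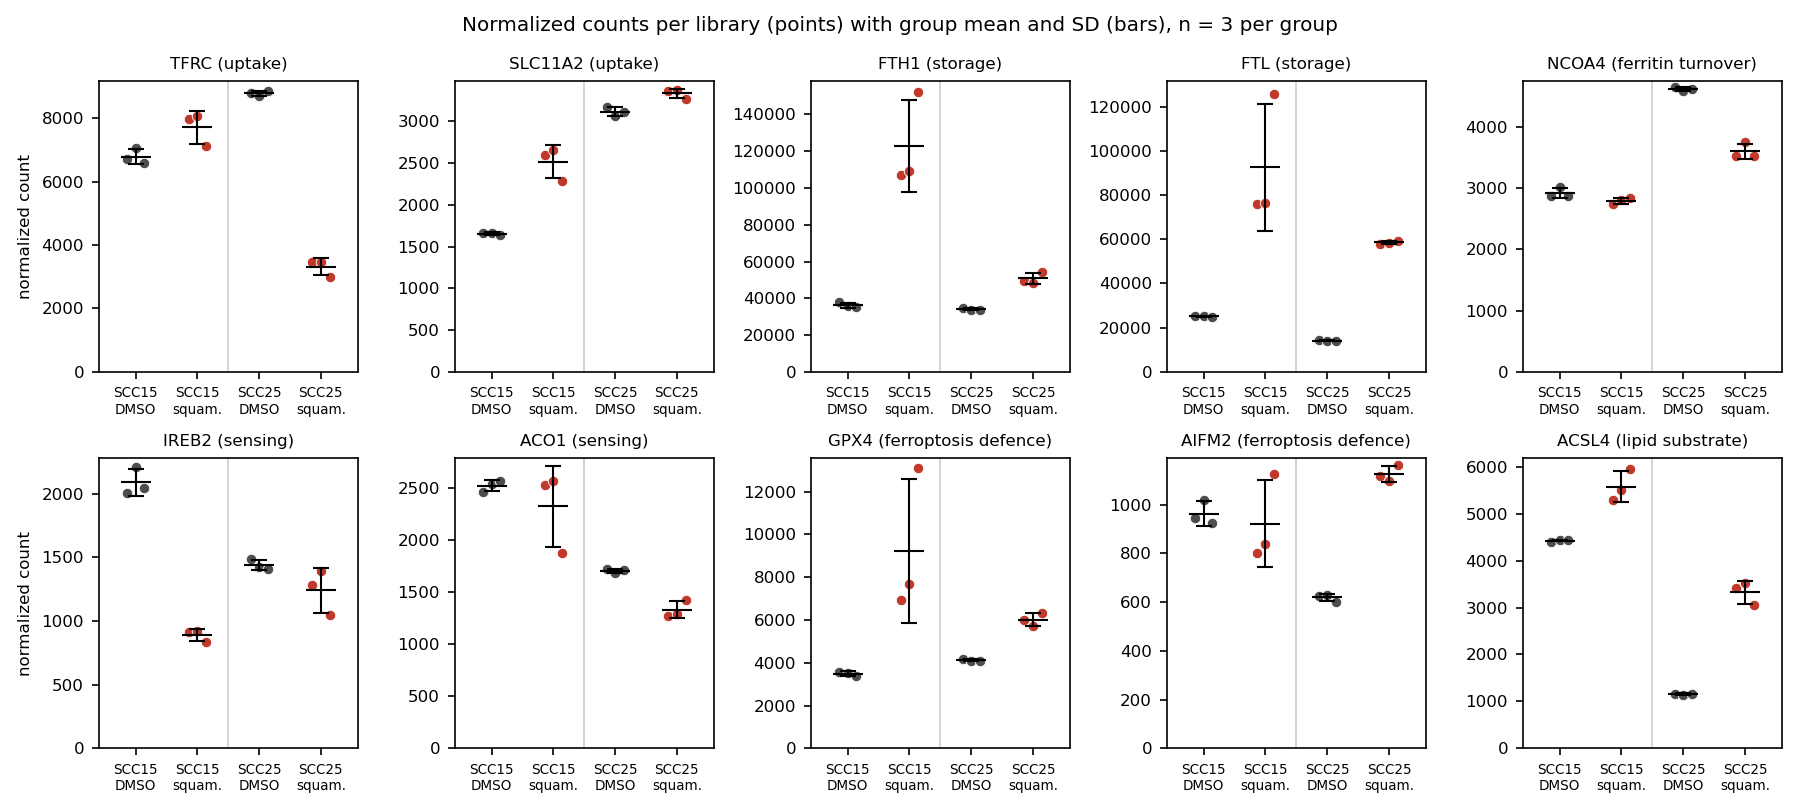
Normalized counts (linear axis from 0) of the 10 genes in each library, with grey points for DMSO, red points for squamocin ("squam.") and black bars for the mean and SD of 3 libraries per group. FTL reached 57982 to 59207 in SCC25 squamocin libraries against 13830 to 14381 with DMSO, TFRC separated in SCC25 only by a wide gap, and the third SCC15 squamocin library lay far above the others for FTH1, FTL and GPX4. The values of the cell lines were scaled separately.

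TFRC, the receptor that brings transferrin-bound iron into the cell, responded differently in the lines. In SCC15 its normalized count was 6701, 7050 and 6602 in the DMSO libraries and 7975, 8062 and 7127 in the squamocin libraries. The groups did not overlap, but the lowest squamocin library lay close to the highest DMSO library. The log2 change was 0.18 ± 0.093 (SE) and did not pass the test (limma, Benjamini-Hochberg adjusted p = 0.119). Without squamocin library 3 it was 0.24 with an adjusted p of 2.14e-05, and with equal library totals it turned to -0.31 (adjusted p = 0.0633 in limma). In SCC25 the count was 8795, 8705 and 8865 with DMSO and 3476, 3470 and 3006 with squamocin, so every squamocin library held less than any DMSO library. This was a 2.65-fold decrease, a log2 change of -1.41 ± 0.054 (limma, adjusted p = 1.58e-10). The SCC25 change minus the SCC15 change was -1.59 ± 0.11 (limma contrast over the 12 libraries, adjusted p = 2.09e-07), and -1.65 without the third SCC15 squamocin library.

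SLC11A2, the transporter that moves ferrous iron across the endosomal membrane, rose in SCC15. Its normalized count was 1664, 1666 and 1638 with DMSO and 2601, 2659 and 2291 with squamocin, with no overlap. The log2 change was 0.60 ± 0.088 (limma, adjusted p = 9.42e-04), 0.67 without library 3 (adjusted p = 5.50e-11), and with equal totals 0.10 with an adjusted p of 0.514. In SCC25 the counts were 3177, 3067 and 3109 with DMSO and 3362, 3373 and 3273 with squamocin, a narrow separation. The log2 change of 0.098 ± 0.040 passed the test by little (limma, adjusted p = 0.0400), it was lost under several alternatives, and with equal totals it turned to -0.11 and passed as lower (limma, adjusted p = 0.0203). The lines differed by -0.50 ± 0.094 (SCC25 minus SCC15, limma adjusted p = 6.36e-04), a call that equal totals also ended (-0.21, adjusted p = 0.225).

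Among the storage genes, FTH1, the heavy chain that oxidises iron as it enters the ferritin shell, stood at 37734, 35614 and 35049 normalized counts in SCC15 with DMSO. With squamocin it stood at 107160, 109362 and 152006, so the lowest treated library was far above the highest control and library 3 was the highest of all. This was a 3.36-fold increase, a log2 change of 1.75 ± 0.18 (limma, adjusted p = 1.87e-04), and 1.58 without library 3. In SCC25 the counts were 34683, 33803 and 33469 with DMSO and 49667, 48549 and 54255 with squamocin, again without overlap. The increase was 1.49-fold, a log2 change of 0.58 ± 0.045 (limma, adjusted p = 1.05e-07). The SCC25 change minus the SCC15 change was -1.17 ± 0.18 (limma, adjusted p = 1.75e-04), and -1.005 without library 3.

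FTL, the light chain that helps the iron core form, rose in both lines. In SCC15 it went from 25310, 25179 and 24620 normalized counts with DMSO to 75879, 76165 and 125766 with squamocin. The log2 change was 1.84 ± 0.21 (limma, adjusted p = 3.30e-04), and 1.60 without library 3, which was again the highest. In SCC25 it went from 14381, 13830 and 13996 to 57982, 58493 and 59207, with the treated libraries close together and far above the controls. This was a 4.16-fold increase, a log2 change of 2.06 ± 0.035 (limma, adjusted p = 1.46e-13), which exceeded that of 96.7% of all genes tested in SCC25. The difference between the lines was 0.21 ± 0.22 (limma, adjusted p = 0.445), which did not pass. It passed without SCC15 squamocin library 3 (0.46, adjusted p = 4.34e-07) and with equal totals (0.50, adjusted p = 0.0145).

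Reads of ferritin mRNA can fall on its many processed pseudogenes. The FTH1 pseudogenes (16 listed for SCC15, 14 for SCC25) held 0.859% to 1.49% of the summed FTH1 and pseudogene counts in any library, and the FTL pseudogenes (5 listed in each) at most 0.120%. In each line 7 FTH1 pseudogenes could be tested, and 6 of them were higher with squamocin. Of all tested genes 30.9% were higher in SCC15 and 38.3% in SCC25, and the pseudogenes are not independent of FTH1 or of each other. FTH1P2, with the most reads, rose with a log2 change of 2.00 in SCC15 and 1.11 in SCC25, and FTH1P7 with 1.84 and 0.65. FTLP14 and FTLP3, at most 28.0 normalized counts in any library, rose in SCC25 with log2 changes of 2.11 and 1.91 and were too low to test in SCC15. These reads cannot be told apart with certainty from reads of the parent genes. BEST1 lies over FTH1 on the opposite strand, and it held means of 42.8 to 322 normalized counts in the 4 groups. The strand setting of the counting is not given in the sources used here.

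NCOA4, the receptor that delivers ferritin to autophagosomes, fell in SCC25. Its normalized count there was 4648, 4596 and 4624 with DMSO and 3535, 3749 and 3529 with squamocin, with no overlap. The decrease was 1.28-fold, a log2 change of -0.36 ± 0.040 (limma, adjusted p = 3.77e-06). In SCC15 the counts were 2870, 3019 and 2874 with DMSO and 2736, 2803 and 2839 with squamocin, groups that lay side by side. The log2 change was -0.065 ± 0.076 (limma, adjusted p = 0.486), -0.077 without library 3 (adjusted p = 0.124), and with equal totals it was -0.56 (adjusted p = 0.00126). The difference between the lines of -0.29 ± 0.082 passed the test (limma, adjusted p = 0.00915), but with equal totals it was -0.0051 (adjusted p = 0.969).

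IREB2, which encodes the iron sensor IRP2, was lower with squamocin in both lines. In SCC15 the normalized count was 2008, 2211 and 2044 with DMSO and 916, 922 and 834 with squamocin, less than the controls in every library. This was a 2.34-fold decrease, a log2 change of -1.23 ± 0.086 (limma, adjusted p = 4.43e-05), and -1.18 without library 3. In SCC25 the counts were 1485, 1427 and 1411 with DMSO and 1285, 1392 and 1045 with squamocin, where the highest treated library nearly reached the lowest control. The log2 change was -0.23 ± 0.085 (limma, adjusted p = 0.0288), and the call was lost when any 1 DMSO library was left out (adjusted p from 0.0520 to 0.0935). It was -0.11 without squamocin library 3 of SCC25 (adjusted p = 0.0463) and -0.43 with equal totals (adjusted p = 3.61e-04). The lines differed by 1.00 ± 0.14 (limma, adjusted p = 5.45e-05), the SCC15 decrease being the larger.

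ACO1, which encodes IRP1, gave normalized counts in SCC15 of 2468, 2541 and 2569 with DMSO and 2536, 2570 and 1880 with squamocin. Treated libraries 1 and 2 lay among the controls and library 3 lay far below them. The log2 change was -0.13 ± 0.13 (limma, adjusted p = 0.408), and 0.016 without library 3 (adjusted p = 0.758). With equal totals it was -0.63 (adjusted p = 0.0200). In SCC25 the counts were 1720, 1687 and 1714 with DMSO and 1276, 1296 and 1425 with squamocin, a 1.28-fold decrease with no overlap (log2 change -0.36 ± 0.053, limma adjusted p = 4.44e-05). The difference between the lines was -0.23 ± 0.15 (limma, adjusted p = 0.208), and -0.37 without SCC15 squamocin library 3 (adjusted p = 1.17e-04).

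GPX4, the glutathione peroxidase that detoxifies lipid peroxides, rose in both lines. In SCC15 its normalized count was 3580, 3500 and 3357 with DMSO and 6915, 7681 and 13079 with squamocin, library 3 again far above the other treated libraries. The increase was 2.55-fold, a log2 change of 1.35 ± 0.22 (limma, adjusted p = 0.00163), and 1.07 without library 3. In SCC25 the counts were 4157, 4096 and 4074 with DMSO and 5979, 5716 and 6325 with squamocin, a 1.46-fold increase without overlap (log2 change 0.55 ± 0.044, limma adjusted p = 1.46e-07). The SCC25 change minus the SCC15 change was -0.80 ± 0.24 (limma, adjusted p = 0.0141), and -0.52 without library 3, where the call held.

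AIFM2, whose product FSP1 defends membranes independently of GPX4, rose in SCC25. Its normalized counts were 626, 631 and 602 with DMSO and 1116, 1097 and 1163 with squamocin. The increase was 1.82-fold, a log2 change of 0.86 ± 0.055 (limma, adjusted p = 1.79e-08). In SCC15 the counts were 947, 1020 and 924 with DMSO and 801, 837 and 1126 with squamocin, where treated libraries 1 and 2 lay below all controls and library 3 above them. The log2 change there was -0.080 ± 0.14 (limma, adjusted p = 0.635), and -0.23 without library 3, with an adjusted p of 0.00180, so that library decided the call. With equal totals it was -0.58 (adjusted p = 0.00150). The lines differed by 0.94 ± 0.15 (limma, adjusted p = 2.28e-04). H2AFY2 overlaps AIFM2 on the opposite strand, with means of 324 (DMSO) and 237 (squamocin) normalized counts in SCC15 and at most 9.36 in SCC25.

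ACSL4, the ligase that supplies peroxidisable lipids, rose far more in SCC25. The normalized counts there were 1161, 1129 and 1160 with DMSO and 3420, 3515 and 3047 with squamocin. The increase was 2.89-fold, a log2 change of 1.53 ± 0.056 (limma, adjusted p = 1.07e-10), above that of 93.5% of all tested genes. In SCC15 the counts were 4406, 4429 and 4445 with DMSO and 5282, 5504 and 5945 with squamocin, also without overlap. The log2 change of 0.33 ± 0.085 (limma, adjusted p = 0.0115) lost its call when any 1 DMSO library was left out (adjusted p from 0.0533 to 0.0560). It was 0.28 without squamocin library 3 (adjusted p = 2.56e-06), and with equal totals it turned to -0.17. The difference between the lines was 1.20 ± 0.10 (limma, adjusted p = 1.02e-06).

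**Figure D2:**
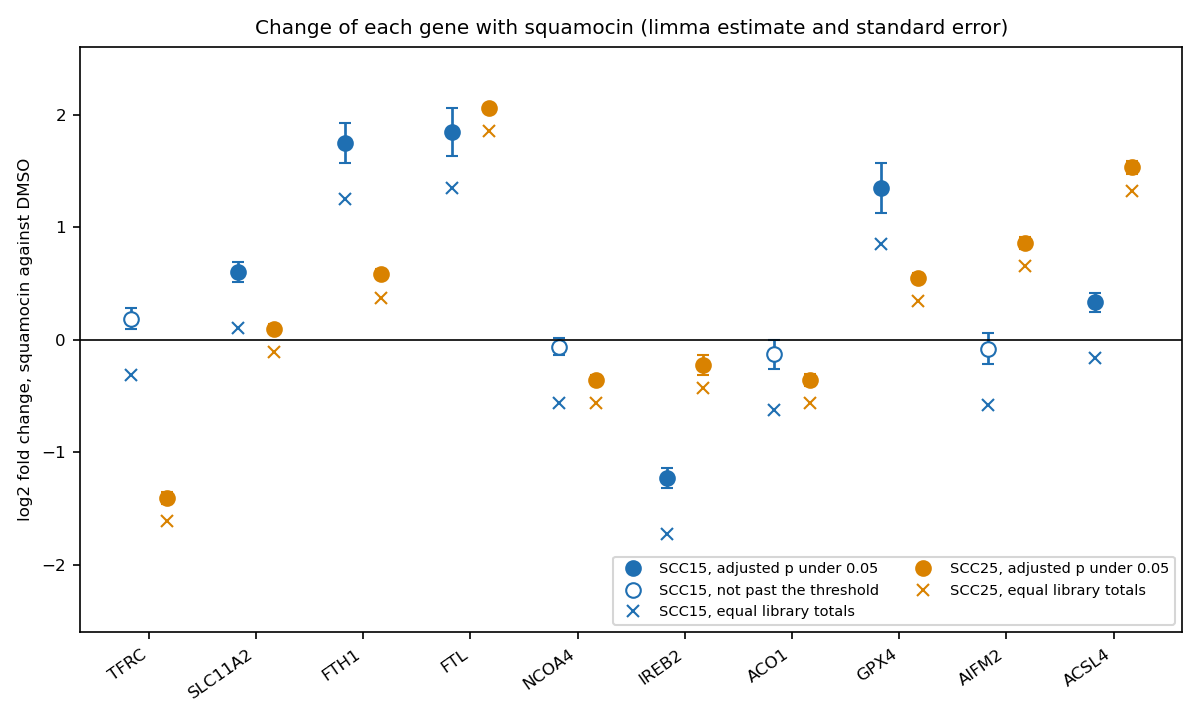
Log2 fold change with squamocin against DMSO for each gene (limma estimate, with bars for the standard error) in SCC15 (blue) and SCC25 (orange). Filled circles passed the test at an adjusted p under 0.05 and open circles did not, and crosses give the same change with equal library totals. FTL lies at 1.84 and 2.06, TFRC at 0.18 and -1.41, and ACSL4 at 0.33 and 1.53, while with equal totals the signs of TFRC and ACSL4 in SCC15 and of SLC11A2 in SCC25 turn.

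Over the list, the response differed between the lines for 8 of the 10 genes, 3 with a higher value in SCC25 (IREB2, AIFM2 and ACSL4) and 5 with a lower value (TFRC, SLC11A2, FTH1, NCOA4 and GPX4). Among all genes tested in both lines the share was 52.2%, 26.0% higher and 26.1% lower. FTL and ACO1 did not pass. With equal totals the median difference of all genes moved from -0.01 to 0.27, and FTL passed at 0.50 (limma, adjusted p = 0.0145). The differences for TFRC, FTH1, IREB2, GPX4, AIFM2 and ACSL4 kept their direction and call with equal totals, while those for SLC11A2 and NCOA4 did not keep the call.

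Ratios of 2 genes within a library do not depend on how libraries were scaled, and 4 were taken after the values had been seen, as a description with no test. TFRC to FTH1, receptor to storage, went from 0.188 ± 0.010 with DMSO to 0.0650 ± 0.016 with squamocin in SCC15 (SD, n = 3) and from 0.259 ± 0.0057 to 0.0656 ± 0.0089 in SCC25. The mean ratio therefore ended near the same value in both lines, although TFRC itself passed the test as lower in SCC25 alone. In SCC15 that nearness came from squamocin library 3 (0.0469). Squamocin libraries 1 and 2 of SCC15 (0.0744 and 0.0737) lay above every SCC25 squamocin library (0.0554 to 0.0715). FTH1 to FTL, the chains of the ferritin shell, went from 2.42 ± 0.027 to 0.868 ± 0.044 in SCC25 and from 1.44 ± 0.042 to 1.35 ± 0.12 in SCC15, where the groups overlapped. ACSL4 to GPX4, lipid substrate to defence, moved in opposite directions: from 1.27 ± 0.047 to 0.645 ± 0.17 in SCC15 and from 0.280 ± 0.0046 to 0.556 ± 0.068 in SCC25. IREB2 to ACO1, the paired iron sensors, went from 0.827 ± 0.039 to 0.388 ± 0.048 in SCC15, and from 0.844 ± 0.020 to 0.938 ± 0.18 in SCC25, where the treated libraries lay on both sides of the controls. Without squamocin library 3 the SCC15 means were 0.0741 for TFRC to FTH1, 1.42 for FTH1 to FTL, 0.740 for ACSL4 to GPX4 and 0.360 for IREB2 to ACO1.

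**Figure D3:**
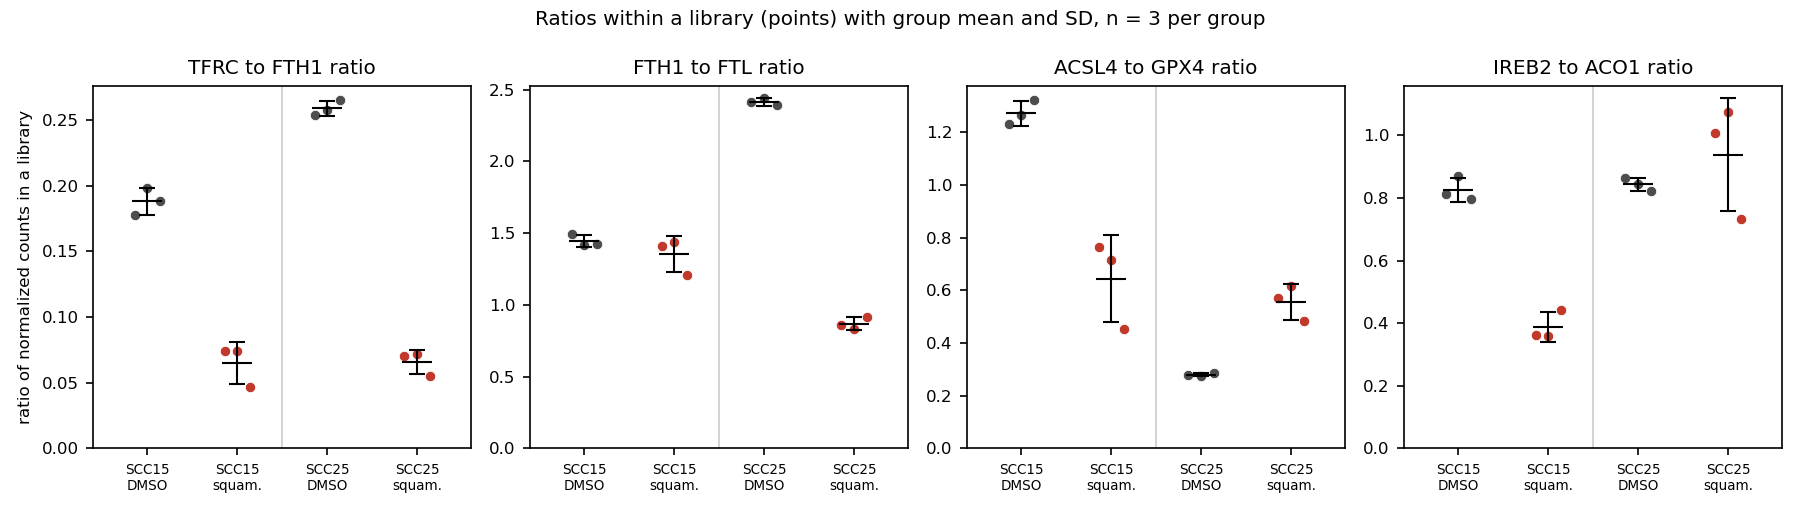
Ratio of the normalized counts of 2 genes in each library (linear axis from 0), with grey points for DMSO, red for squamocin and black bars for the mean and SD of 3 libraries per group. Mean TFRC to FTH1 falls to 0.0650 in SCC15 (0.0741 without squamocin library 3) and to 0.0656 in SCC25. Mean ACSL4 to GPX4 falls to 0.645 in SCC15 but rises to 0.556 in SCC25.

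Levels between genes were compared per length, as RPKM (reads over the length of the MANE Select transcript and over the library total). The library total replaces the authors' scaling, so changes in RPKM correspond to the setting of equal totals, not to the main test. In SCC15 the means of TFRC (87.3 to 70.9) and ACSL4 (58.4 to 52.1) were lower with squamocin on this scale. Ferritin mRNA led in every group. In SCC15, FTH1 was at 1937 RPKM and FTL at 1854 RPKM with DMSO, with ranges from 1884 to 2022 and from 1828 to 1873 that did not overlap, and with squamocin they were at 4616 and 4773 RPKM, with ranges that overlapped. Without squamocin library 3 FTH1 was at 4359 and FTL at 4228 RPKM, so that library set their order. In SCC25, FTH1 led with DMSO (1545 against 883 RPKM) and FTL with squamocin (3184 against 2001 RPKM), in both cases with no overlap. GPX4 was the third in every group, at 264 RPKM with DMSO in both lines and at 485 (SCC15) and 334 (SCC25) RPKM with squamocin, or 415 in SCC15 without library 3. With DMSO, TFRC came next, at 87.3 RPKM in SCC15 and 95.9 RPKM in SCC25. With squamocin TFRC stayed in the fourth place in SCC15 (70.9 RPKM) and took the seventh in SCC25 (31.3 RPKM), behind NCOA4 (49.3), SLC11A2 (38.2) and ACSL4 (32.2), and the ranges of TFRC and ACSL4 overlapped. ACSL4 was more abundant in SCC15 (58.4 RPKM with DMSO) than in SCC25 (12.9 RPKM). The sensors ACO1 and IREB2 and the FSP1 gene AIFM2 took the last places in every group, between 6.48 and 21.9 RPKM in group means. With DMSO, the ranges of ACO1 and IREB2 overlapped in both lines.

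**Figure D4:**
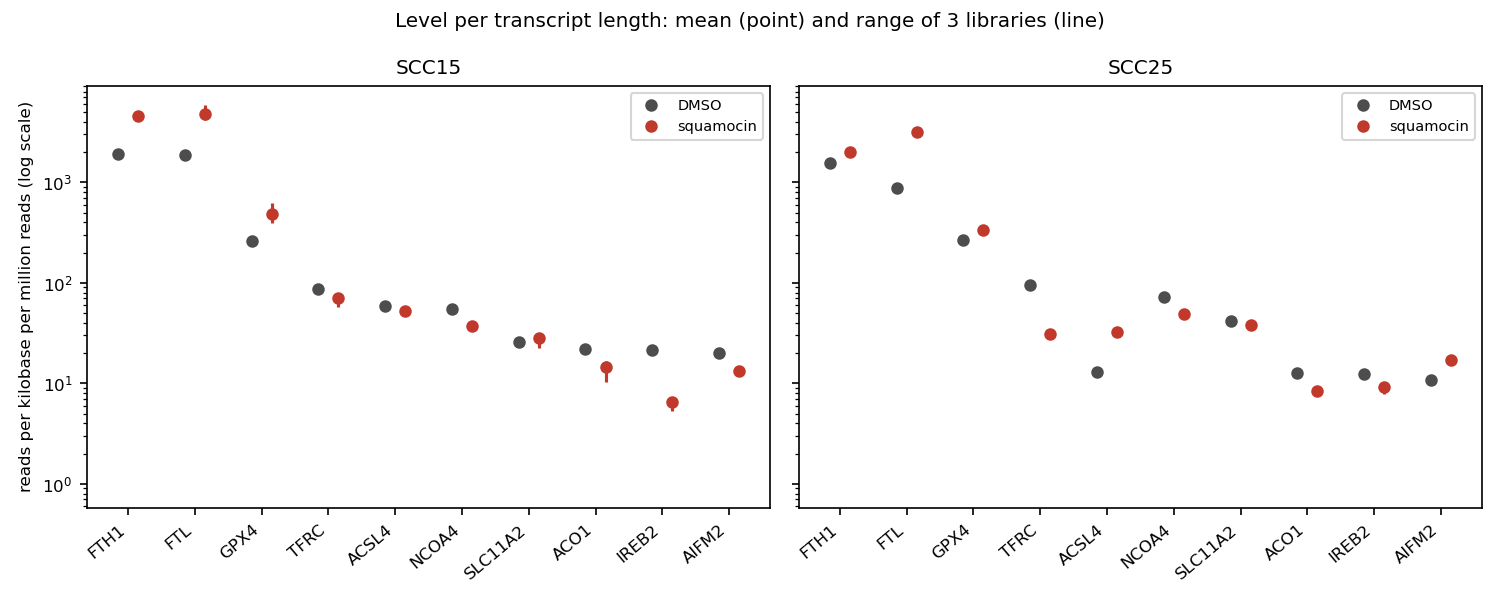
Level of each gene per transcript length (RPKM, log axis) in SCC15 and SCC25, with points for the mean and lines for the range of 3 libraries, grey for DMSO and red for squamocin, and genes in the order of SCC15 DMSO. FTH1 and FTL stand between 883 and 4773 in group means, and the sensors and AIFM2 between 6.48 and 21.9.

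The wider pathway was followed in 12 lists with 137 genes in all, of which 127 could be tested in SCC15 (49 higher and 27 lower) and 126 in SCC25 (53 higher and 54 lower), the 10 genes above included. These were 38.6% higher and 21.3% lower in SCC15, where all tested genes gave 30.9% and 30.0%. In SCC25 they were 42.1% and 42.9%, where all tested genes gave 38.3% and 38.5%. With equal totals 2357 of all 15902 tested genes were higher and 8032 lower in SCC15, and 5032 and 7839 of 16539 in SCC25. Without squamocin library 3, 6086 of 16001 were higher and 6022 lower in SCC15. Counts of the lists, in the main test and under these settings, are to be read beside these values of all tested genes. Of the listed genes named below, 30 passed the test in SCC15, and without squamocin library 3 all 30 kept their direction and call. With equal totals 25 of the 30 did, and 29 of 30 in SCC25. Most of these genes were named because they passed in both lines, and the refits use the same libraries. The counts kept are therefore a description and no independent support. The lists were written from general knowledge, but with earlier results of these data known, so they are not independent of the data. They are described by counts and medians beside the median of all tested genes, 0.01 in SCC15 and -0.01 in SCC25.

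Iron uptake genes were mostly lower in SCC25, 7 of 11 tested with 2 higher and a median log2 change of -1.11, and in SCC15 4 were lower and 2 higher, with a median of 0.04. Of all tested genes 38.5% were lower in SCC25 and 30.0% in SCC15. STEAP4, a ferrireductase, fell from 3175 ± 139 to 382 ± 16.3 normalized counts in SCC15 (log2 change -3.05 ± 0.082, limma adjusted p = 3.04e-06) and from 42.4 ± 3.82 to 12.2 ± 4.11 in SCC25 (-1.76 ± 0.30). STEAP3, the endosomal ferrireductase that works with TFRC, fell in both lines, with log2 changes of -0.90 and -1.11. CYBRD1, a surface ferrireductase, changed by -0.36 in SCC15 and -1.50 in SCC25, and SLC39A8, a metal importer that also carries zinc and manganese, by -0.42 and -1.34. The SCC15 call of SLC39A8 was lost when any 1 DMSO library was left out (adjusted p from 0.0563 to 0.0670), and that of CYBRD1 without DMSO library 3 (0.0501). SLC39A14, another importer that takes up iron not bound to transferrin, was the only gene of this list beside SLC11A2 that rose in SCC25 (log2 change 0.71), and in SCC15 it was at 0.04 and did not pass, while with equal totals it was at -0.45 there (adjusted p = 0.0126). MELTF, melanotransferrin, was the second gene higher in SCC15 (0.45) and it was lower in SCC25 (-0.79), but with equal totals its SCC15 value was -0.043 (adjusted p = 0.631). With equal totals 6 uptake genes were lower in SCC15 and 8 in SCC25, and without squamocin library 3 SCC15 had 4 higher and 4 lower.

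In the storage list, PCBP2, an iron chaperone that delivers iron to ferritin and also binds RNA, rose from 1855 ± 33.0 to 4258 ± 1134 in SCC15 (log2 change 1.17) and from 2002 ± 101 to 4022 ± 125 in SCC25 (1.01). PCBP1, its paralogue, had log2 changes of 0.70 in SCC15 and -0.69 in SCC25, both past the test. With equal totals its SCC15 change was 0.20 and did not pass (adjusted p = 0.110). So 4 of 5 tested genes were higher in SCC15, where NCOA4 did not pass, and in SCC25 3 were higher and 2 lower. With equal totals SCC15 had 3 higher and 1 lower. Iron export was sparsely expressed. CP, the ferroxidase ceruloplasmin, was at 95.1 ± 17.2 normalized counts with DMSO in SCC25 and at 0, 0 and 2 reads in the squamocin libraries, at least 27.8-fold lower against a floor of 3 reads per library (counting error only), and in SCC15 it went from 20.2 ± 3.87 to 9.39 ± 2.08, a call lost without DMSO library 1 (adjusted p = 0.0978) or 3 (0.0927) or squamocin library 2 (0.0516). SLC40A1, the iron exporter ferroportin, was low in SCC15, at 24.6 ± 0.81 normalized counts with DMSO and 4.82 ± 3.42 with squamocin (log2 change -2.29). It is not among the genes listed for SCC25. HEPHL1, a ferroxidase, was tested in SCC25 alone (-0.38) and did not pass.

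Of the sensing list, HFE, the partner of transferrin receptors in iron sensing, fell from 359 ± 13.5 to 197 ± 5.66 normalized counts in SCC15 (log2 change -0.86 ± 0.096, limma adjusted p = 2.86e-04) and from 449 ± 27.7 to 196 ± 30.6 in SCC25 (-1.20 ± 0.11, adjusted p = 5.14e-07). FBXL5, the ubiquitin ligase subunit that degrades IRP2 when iron is plentiful, was the only sensing gene that rose, with log2 changes of 0.49 in SCC15 and 0.76 in SCC25. With equal totals its SCC15 change was -0.0077 (adjusted p = 0.941), and 5 sensing genes were lower there. TMPRSS6, a protease of the hepcidin pathway, was lower in SCC25 (-1.29), and so 1 gene was higher and 4 lower there of 5 tested, and 1 higher and 2 lower of 6 in SCC15.

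Of the mRNAs known for an iron-responsive element, 4 were higher and 3 lower of 10 tested in SCC15, and 5 higher and 2 lower of 8 in SCC25. FTH1, FTL and SLC11A2, described above, were among the higher genes in both lines. With equal totals SLC11A2 was not among them, and 2 were higher and 4 lower in SCC15, and 3 and 4 in SCC25. Without squamocin library 3 SCC15 had 5 higher and 3 lower.

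Of 18 tested genes for mitochondrial iron supply and iron-sulphur cluster assembly, 9 were higher and 1 was lower in SCC15 (median log2 change 0.38), and SCC25 had 12 higher and 4 lower (median 0.50). ISCU, the scaffold on which clusters are built, rose from 1072 ± 37.8 to 2401 ± 493 normalized counts in SCC15 (log2 change 1.14 ± 0.14, limma adjusted p = 4.50e-04) and from 1608 ± 19.6 to 4346 ± 45.3 in SCC25 (1.43 ± 0.040, adjusted p = 1.04e-11). BOLA3, which helps pass clusters on to target proteins, had log2 changes of 1.03 and 1.84. The mitochondrial iron importers SLC25A37 (1.12 and 0.58) and SLC25A28 (0.74 and 1.15) also rose in both lines. IBA57, a late-acting assembly factor, was the single gene of the list that fell in SCC15 (-0.93), and it fell in SCC25 too (-0.64). With equal totals 5 genes were higher and 6 lower in SCC15, where the median became -0.12, and without squamocin library 3 9 were higher and 6 lower. Of 9 cytosolic assembly genes, 5 were higher in SCC15 and the other 4 did not pass, and in SCC25 3 were higher and 4 lower. With equal totals SCC15 had 2 of this list higher and 3 lower, SCC25 had 3 higher and 6 lower, and without squamocin library 3 SCC15 had 6 higher and 1 lower. CIAO2B, a subunit of the complex that targets clusters to cytosolic and nuclear proteins, had log2 changes of 1.51 and 0.78.

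Haem genes moved both ways, with 5 higher and 4 lower of 16 in SCC15, while SCC25 had 5 higher and 8 lower of 15. With equal totals 1 was higher and 7 were lower in SCC15, where the median went from 0.27 to -0.23, and 3 were higher and 9 lower in SCC25. Without squamocin library 3 SCC15 had 6 higher and 5 lower. HMOX1, the haem oxygenase that frees iron from haem, rose from 289 ± 17.1 to 876 ± 196 normalized counts in SCC15 (log2 change 1.58 ± 0.16, limma adjusted p = 1.78e-04) and from 115 ± 18.7 to 411 ± 7.26 in SCC25 (1.85 ± 0.12, adjusted p = 1.67e-08). ALAD, an early enzyme of haem synthesis, fell, with log2 changes of -0.41 and -1.01.

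The glutathione list had the largest share of higher genes among lists with 6 or more tested in SCC15, 7 of 8, and in SCC25 6 of 8 were higher (medians 0.96 and 0.58). The others of the list did not pass. Of all tested genes 30.9% were higher in SCC15 and 38.3% in SCC25, and the list was written with earlier results of these data known. SLC3A2, the heavy chain of the cystine importer, rose from 5658 ± 301 to 21682 ± 3154 normalized counts in SCC15 (log2 change 1.93 ± 0.13, limma adjusted p = 3.33e-05) and from 10691 ± 154 to 32390 ± 2731 in SCC25 (1.60 ± 0.052, adjusted p = 4.25e-11). SLC7A11, its cystine-carrying light chain, rose from 680 ± 34.9 to 1531 ± 224 (1.16 ± 0.12) and from 887 ± 34.6 to 2894 ± 189 (1.70 ± 0.057). GCLM, the modifier subunit of the enzyme that starts glutathione synthesis, had log2 changes of 1.11 and 1.96. GSR, glutathione reductase, did not pass in either line (0.094 and -0.13), and CHAC1, which degrades glutathione, was higher in SCC15 (0.67) and did not pass in SCC25 (-0.19). With equal totals GSR was at -0.40 in SCC15 (adjusted p = 0.00548) and at -0.34 in SCC25 (2.82e-04), and CHAC1 at 0.18 (0.258) and -0.40 (0.00228). With equal totals SCC15 had 5 of them higher and 1 lower, and SCC25 had 6 higher and 2 lower. Selenoprotein synthesis, on which GPX4 depends for its selenocysteine, had 2 genes higher and 1 lower of 7 in SCC15, and in SCC25 2 were higher and 5 lower. With equal totals 5 of these genes were lower in SCC15, where 8032 of all 15902 tested genes were lower. SEPHS2, which makes the selenium donor, fell from 1315 ± 34.0 to 645 ± 143 normalized counts in SCC15 (log2 change -1.05) and from 1348 ± 34.6 to 674 ± 60.7 in SCC25 (-1.002), while GPX4 rose in both.

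Of the 21 genes for radical trapping by coenzyme Q and tetrahydrobiopterin, AIFM2 included, 4 were higher and 7 lower in SCC15, while in SCC25 there were 8 higher and 10 lower. In SCC15 the counts were 6 and 10 without squamocin library 3, and 3 and 13 with equal totals. The genes of tetrahydrobiopterin synthesis PTS (log2 changes of 1.53 and 1.49) and GCH1 (0.79 and 1.72) rose in both lines. COQ8A, a factor of coenzyme Q synthesis, fell in both (-0.79 and -1.77). Among 19 tested genes of lipid remodelling and peroxidation 9 were higher and 4 lower in SCC15, and among 21 in SCC25 9 were higher and 8 lower. With equal totals SCC15 had 2 higher and 8 lower, and SCC25 7 and 9. LPCAT3, which places polyunsaturated fatty acids into phospholipids after ACSL4 has activated them, fell in both lines. It went from 601 ± 20.8 to 248 ± 87.1 normalized counts in SCC15 (log2 change -1.34 ± 0.26, limma adjusted p = 0.00339). In SCC25 it went from 385 ± 15.3 to 115 ± 24.0 (-1.75 ± 0.13, adjusted p = 8.99e-08). ACSL4 rose in SCC25 (1.53), but its SCC15 change of 0.33 turned to -0.17 with equal totals. SAT1, a polyamine acetyltransferase, rose with log2 changes of 2.02 and 0.26, and in SCC25 it was at 0.052 with equal totals (adjusted p = 0.312). PEDS1, the plasmalogen desaturase listed as TMEM189, rose with 0.75 and 1.28. Its SCC15 change was 0.25 with equal totals (adjusted p = 0.236), and the call was also lost without DMSO library 1 (0.0776) or 3 (0.0701).

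**Figure D5:**
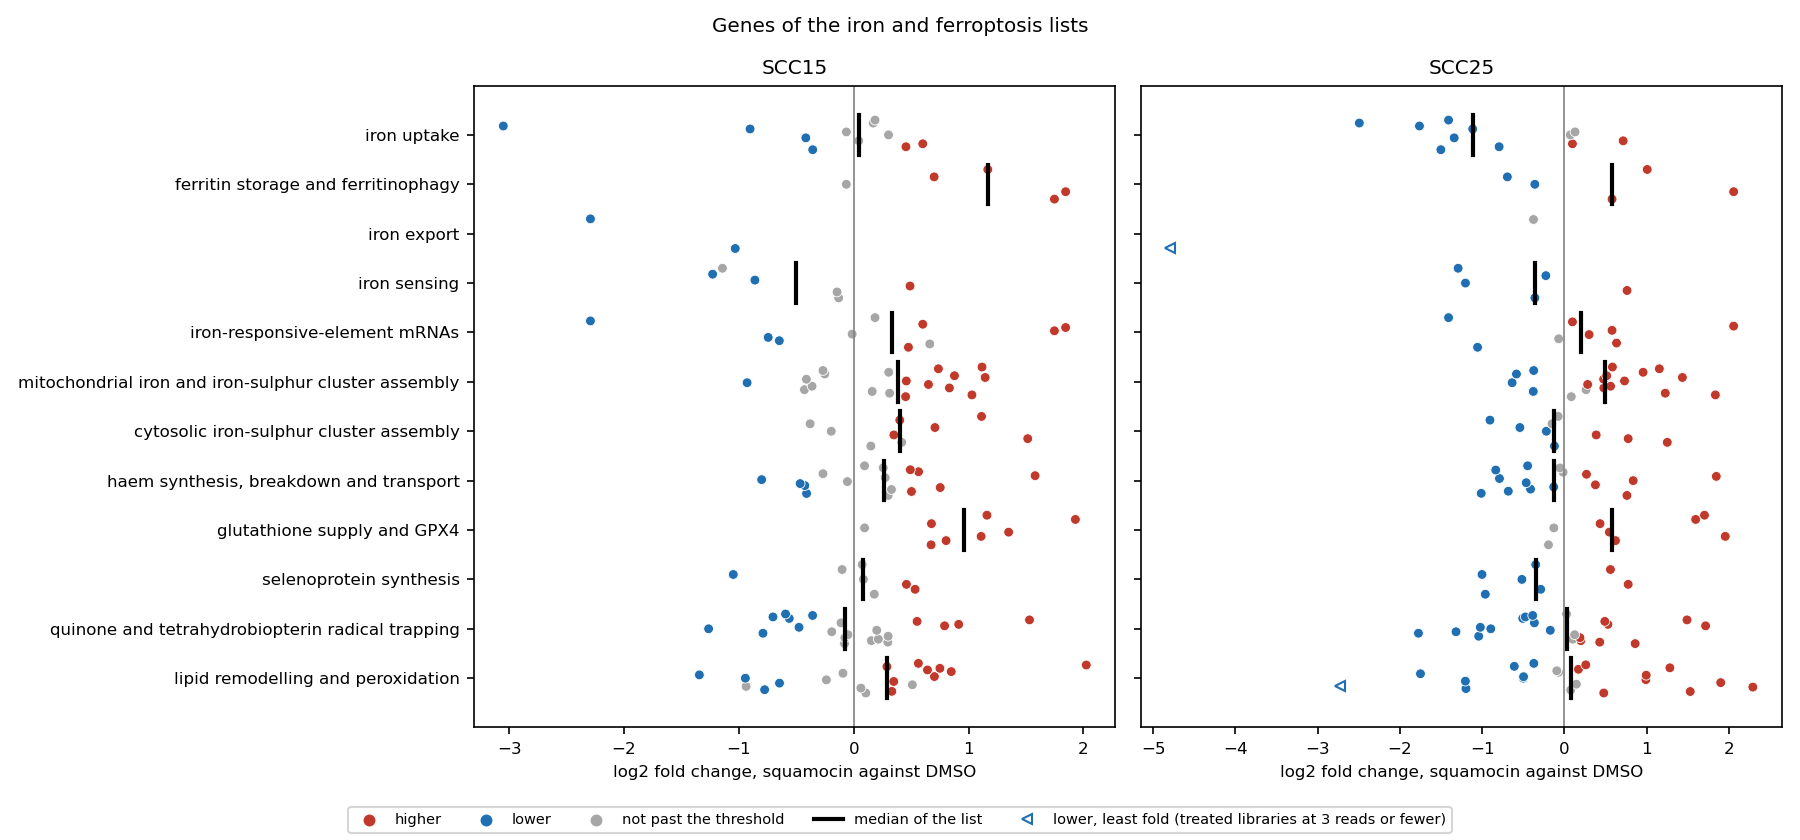
Log2 fold change with squamocin against DMSO of each tested gene in the 12 lists, for SCC15 (left) and SCC25 (right, another axis range), with red points for genes higher and blue for genes lower at an adjusted p under 0.05, grey for the rest, and a black line at the median of lists with at least 5 tested genes. Open triangles mark the least fold of genes whose squamocin libraries all held 3 reads or fewer. The glutathione list lies to the right in both lines, with 7 and 6 of 8 genes higher (30.9% and 38.3% of all tested genes). Iron uptake lies to the left in SCC25, with 7 of 11 lower (38.5% of all tested genes).

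Genes whose profile over the 12 libraries was most like that of TFRC or FTH1 were sought among 9697 protein-coding genes with a mean of at least 100 in both tables. Likeness was the root mean square difference of log2(normalized count + 1), each taken relative to the DMSO mean of its line, and it is a description with no test. SULT1A1 (0.108), MICALL1 (0.120) and RECQL4 (0.123) lay nearest to TFRC, where the median gene lay at 0.853, and their log2 changes were between 0.19 and 0.38 in SCC15 and between -1.49 and -1.35 in SCC25. PCK2 (0.0695), SMOX (0.0819) and ANGPTL4 (0.0903) lay nearest to FTH1, where the median gene lay at 0.928. Their log2 changes were between 1.75 and 1.82 in SCC15 and between 0.44 and 0.56 in SCC25.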

How the data were processed

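The authors aligned reads to GRCh38/hg38 with HISAT2 2.0.5 and counted them per gene with featureCounts 1.5.0-p3. The signal they deposited for each gene is its number of reads divided by a size factor of the library, with separate factors for each cell line. The deposited tables also hold the authors' own log2 fold change and p-values, which were not used. Multiplying by the recovered size factor gave whole reads (within 0.01) for 100% of genes. Genes whose mean reached 10 entered 2-sided tests of log2(normalized count + 1) by limma 3.58.1 (trended eBayes, R 4.3.3). P-values were adjusted over each table by the Benjamini-Hochberg method, and a call was an adjusted p under 0.05. The difference between lines was a contrast of the 4 group means. Scripts were tested on simulated data. The alternatives were other pseudocounts, filters, scalings, edgeR 4.0.16 and DESeq2 1.42.0 on recovered reads, a replicate block, and libraries left out. Genes were named by rule: all 10 members, and from each list at most 4 genes called in both lines with an absolute log2 change over 1 in at least 1, and genes that small counts point to. Of these, 2 are not reported here. Members and lists were chosen with earlier results of these data known. Same-numbered libraries did not deviate together (correlations of -0.051 to 0.0078), so the numbers were not treated as pairs.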

Additional observations from a re-analysis of the deposited data

Results flagged for a closer look

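The response to squamocin differed between the cell lines for 8 of the 10 genes and for 19 other named genes of the lists. The test was the limma contrast over 12 libraries with adjustment over 14454 genes, of which 52.2% differed. Most of the other named genes were picked by their calls in both lines, so these counts do not set the genes apart. Values are the SCC25 log2 change minus the SCC15 log2 change. Among the members they were -1.59 for TFRC, -0.50 for SLC11A2, -1.17 for FTH1, -0.29 for NCOA4, 1.00 for IREB2, -0.80 for GPX4, 0.94 for AIFM2 and 1.20 for ACSL4. For the uptake genes they were 1.29 for STEAP4, -1.14 for CYBRD1, -0.92 for SLC39A8, 0.67 for SLC39A14 and -1.25 for MELTF. The difference was -1.39 for the iron chaperone gene PCBP1, 0.27 for FBXL5 and -0.87 for CHAC1. For CP the fitted value was -4.98, which depends on the pseudocount because its treated SCC25 libraries held 0 to 2 reads. For cluster assembly and mitochondrial iron, they were 0.81 for BOLA3, 0.42 for SLC25A28, -0.53 for SLC25A37 and -0.74 for CIAO2B. For ALAD the difference was -0.60, for GCLM 0.85, for SLC7A11 0.54, for COQ8A -0.98, for GCH1 0.93 and for SAT1 -1.76. With equal totals the calls of SLC11A2, NCOA4, ALAD and SLC25A37 were lost. That of FBXL5 (adjusted p = 0.0211) was lost with no filter (0.0520), with the replicate block (0.0767), and without SCC15 DMSO library 2 (0.0538) or 3 (0.0512) or SCC25 DMSO library 1 (0.0621).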

How the results depend on the processing

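Of 560 alternative values of the 10 genes, 523 kept direction and side of the threshold. With equal totals, 3 genes were higher and 4 lower in SCC15, where 2357 of 15902 tested genes were higher and 8032 lower. There were 3 lower differences between lines, against 2396 of 14454 tested genes. SCC15 ACSL4 turned to -0.17 and SCC25 SLC11A2 to -0.11, and in SCC15 FBXL5 to -0.0077, GSR to -0.40, MELTF to -0.043 and SLC39A14 to -0.45. Equal totals without SCC15 squamocin library 3, chosen after seeing the data, gave 10 changed genes in SCC15, 6 of them lower. With this setting 3394 of 16001 tested SCC15 genes were higher and 9278 lower. TFRC was then at -0.17 and ACSL4 at -0.13, and the differences of PCBP2 and PTS turned to 0.25 and 0.31. There SCC15 GSR was at -0.38, MELTF at -0.041 and SLC39A14 at -0.33. Requiring an absolute log2 change above 1 left 3 higher in SCC15, 3 changed genes in SCC25 (2 higher, 1 lower) and 4 differences (2 lower). Leaving out 1 library at a time gave 5 to 8 changed genes in SCC15 (4 to 6 higher, 1 to 2 lower), 8 to 10 in SCC25 (5 to 6 higher, 3 to 4 lower) and 8 to 10 differences (3 to 4 higher, 5 to 6 lower). The upper ends in SCC15 and for the differences came without SCC15 squamocin library 3, where 2 genes were lower in SCC15. The SCC25 call of SLC11A2 (adjusted p = 0.0400) was also lost with TMM factors (0.0550), with no filter (0.0616), in edgeR (0.0912) and DESeq2 (0.107). With replicate number as a block its adjusted p was 0.0757, and the block changed no other call of the 10 genes. In SCC15 the block ended the call of CP (adjusted p = 0.0522). No same-numbered pair had a correlation over 0.0078, and the numbers were not used as pairs. The correlations rest on deviations from means of 3 libraries, so they cannot show whether libraries were set up together. All 10 genes held at least 602 normalized counts in every library, so counting depth limits only the pseudogenes, CP and other sparse list genes.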
